A study of Mus musculus with 12 samples.

Results

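The genes of mouse chromosome 15 were measured as RNA in a set of melanoma cell lines, and their values were followed in order along the chromosome. Members were chosen by position on chromosome 15 in GRCm38 and by a level of 1 FPKM or more in 3 or more of the 12 libraries. FPKM is the number of fragments or reads scaled by gene length and by library depth. The chromosome itself was selected on the difference between Cas9-NTC and NTC. The filter and the position together held for 482 of 11860 genes that passed the same filter across the genome, and for 482 of the 1851 chromosome 15 genes listed, of which 813 were at 0 in every library. Of the 482 genes, 437 were protein coding and 375 reached 1 FPKM in all 12 libraries. Near the threshold, Nipal2 and Osr2 passed with a value of 1.01 and 1.02 FPKM in the library that ranked 3 from the top, while Rnd1 and Gm7666 had 0.973 FPKM each and stayed out. The filter let in 11 genes through 1 group alone. There were 34 genes that reached 1 FPKM in Cas9 groups alone and 23 that did so in NTC and Gli2CA alone, so those genes had to differ between lines. For those named here the difference between the lines is given with no p, and they are also among the genes counted as called between the lines.

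All cells carried an active BRAF kinase (BRAFV600E), and all were kept in puromycin (1 ug/mL) in DMEM medium that held 10% FBS. The 4 groups of 3 libraries each were Cas9-Gli2KO, labelled as a CRISPR Cas9 knockout of the Hedgehog transcription factor Gli2, Cas9-NTC, its non-targeted control, Gli2CA, labelled as carrying active Gli2, and NTC, the non-targeted control of Gli2CA. Both Cas9 groups also received blasticidin at 10 ug/mL. The labels give no guide, no promoter for active Gli2 and no word on whether a group is a clone. They do not say either whether libraries came from separate cultures. The p-values therefore cover library-to-library spread, which may be technical. Cas9-NTC and NTC differ in line, in Cas9 and in blasticidin, and these cannot be told apart. Cas9-NTC against NTC is the comparison in which chromosome 15 was picked out, so its values are given as a description with no test. Gene-level tests were run for the libraries labelled Cas9-Gli2KO against Gli2CA, which shares no library with it, and for both comparisons within a line.

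In cells that gain or lose a whole chromosome, the RNA of most genes on it usually moves in the same direction as the gene dose, while single genes are set by their own regulation. Chromosome 15 of the mouse carries Myc, the transcription factor that drives growth and ribosome production, and gain of this chromosome recurs in mouse lymphomas. RNA levels do not measure DNA copies and no DNA was analysed here, so a copy-number change on chromosome 15 is not something these values can show, and the genes are described by their shift in RNA.

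The smallest steps of the FPKM values gave a scaling depth of 15972800 to 25983200 reads per library. This is not the read total of a library, since the reads recovered in genes exceeded it in several. In Gli2CA library 1 they were 17958219, against a depth of 15972800. Gli2 had 0.82, 0.894 and 2.14 FPKM in the libraries labelled Cas9-Gli2KO, 0.249, 0.35 and 0.235 in Cas9-NTC, 0.00911, 0 and 0.0387 in Gli2CA and 0 in each NTC library. Its RNA was higher in each library labelled as the knockout than in any library of its control, which goes against the label if the edit lowers the RNA, so every direction drawn from this group rests on a label that Gli2 RNA does not bear out. Gli2CA, labelled as carrying active Gli2, held 1, 0 and 5 Gli2 reads, so Gli2 RNA does not bear out that label either. Whether RNA of the active form would be counted is not known. Libraries 1 and 2 labelled Cas9-Gli2KO stood apart from the rest: their values fell by 0.188 and 0.14 on the log2 scale per doubling of exon length, against slopes of -0.000557 to 0.0684 in the other 10 libraries. The main counts and medians of this group are therefore also given with its library 3 alone or without it, and so are single genes and lists where that changes the value or the call. Of 12 melanocyte markers, 4 reached 1 FPKM in 3 libraries. The 12 summed to 61.7 to 99.3 FPKM in the libraries labelled Cas9-Gli2KO, 112 to 114 in Cas9-NTC, 164 to 180 in Gli2CA and 196 to 214 in NTC. Sox10, a chromosome 15 gene among these 12, had 155 to 171 FPKM in Gli2CA, 177 to 197 in NTC and at most 0.058 in the Cas9 groups. It made up most of the sum in Gli2CA and NTC, and the other markers together summed higher in the Cas9 groups. Tyrp1, Dct and Slc45a2 were at 0 in every library, and Tyr, Pmel, Mlana and Kit stayed under 1 FPKM. Little RNA of these pigment-cell markers was thus found, unlike Sox10 in Gli2CA and NTC and the other markers that reached 1 FPKM. Summed fibroblast markers were 90 to 242 FPKM in the libraries labelled Cas9-Gli2KO, 227 to 239 in Cas9-NTC, 89.8 to 102 in Gli2CA and 79 to 88.8 in NTC, and 3 of 7 reached 1 FPKM. Leukocyte markers, with 1 of 10 at the filter, summed to 1.71 to 2.3 FPKM in the libraries labelled Cas9-Gli2KO, 9.61 to 9.73 in Cas9-NTC, 7.17 to 8.79 in Gli2CA and 1.74 to 2.66 in NTC. Endothelial markers, with 1 of 6 at the filter, summed to 6.2 to 19.4 FPKM in the libraries labelled Cas9-Gli2KO, 2.61 to 3.14 in Cas9-NTC, 0.426 to 0.507 in Gli2CA and 0.0757 to 0.138 in NTC, and keratinocyte markers, with 1 of 6 at the filter, to 1.23 to 3.57 FPKM over all libraries. The part of these differences in the chromosome 15 values was not tested, and in bulk RNA fewer cells of a type and less RNA per cell cannot be told apart.

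Promoters of 5 genes spread over the chromosome are shown, since they head transcripts that behaved differently between the lines: Rpl37, Dap, Atxn10 and Hnrnpa1 were higher in Cas9-NTC than in NTC, and Ly6c1 was lower. Coordinates in all paragraphs are on GRCm38, those of genes from GENCODE M21. Each sequence runs 5′ to 3′ from 250 bases before to 50 bases after the RefSeq start (GRCm38.p6). Capitals mark a TATA box (TATAAA) or a GC box (GGGCGG), read on both strands, so that CCGCCC is the GC box of the other strand.
Rpl37 (chr15:5116363-5116662, plus strand): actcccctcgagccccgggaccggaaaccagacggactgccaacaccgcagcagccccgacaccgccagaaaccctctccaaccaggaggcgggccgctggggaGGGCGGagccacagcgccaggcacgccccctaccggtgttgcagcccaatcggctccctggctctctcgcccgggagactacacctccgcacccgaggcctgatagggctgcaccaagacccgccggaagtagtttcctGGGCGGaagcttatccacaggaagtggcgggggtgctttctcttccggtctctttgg
Dap (chr15:31224135-31224434, plus strand): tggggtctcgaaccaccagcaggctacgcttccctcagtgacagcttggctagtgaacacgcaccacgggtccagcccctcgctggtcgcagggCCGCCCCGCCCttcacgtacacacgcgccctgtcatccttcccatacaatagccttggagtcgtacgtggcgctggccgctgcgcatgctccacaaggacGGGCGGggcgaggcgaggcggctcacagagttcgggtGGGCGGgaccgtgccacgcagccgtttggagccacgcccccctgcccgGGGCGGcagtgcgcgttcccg
Ly6c1 (chr15:75048788-75049087, minus strand): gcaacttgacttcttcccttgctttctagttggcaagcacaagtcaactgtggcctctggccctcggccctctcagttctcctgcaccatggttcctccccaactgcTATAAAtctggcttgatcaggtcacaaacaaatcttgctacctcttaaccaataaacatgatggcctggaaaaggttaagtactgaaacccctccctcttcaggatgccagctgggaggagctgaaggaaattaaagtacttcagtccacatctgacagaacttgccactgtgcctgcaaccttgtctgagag
Atxn10 (chr15:85336005-85336304, plus strand): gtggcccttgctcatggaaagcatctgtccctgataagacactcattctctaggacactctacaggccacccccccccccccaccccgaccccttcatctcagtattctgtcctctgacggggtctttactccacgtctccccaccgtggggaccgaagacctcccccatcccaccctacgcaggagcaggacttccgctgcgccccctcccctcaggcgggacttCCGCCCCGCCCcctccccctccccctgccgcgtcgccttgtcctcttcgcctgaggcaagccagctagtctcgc
Hnrnpa1 (chr15:103240147-103240446, plus strand): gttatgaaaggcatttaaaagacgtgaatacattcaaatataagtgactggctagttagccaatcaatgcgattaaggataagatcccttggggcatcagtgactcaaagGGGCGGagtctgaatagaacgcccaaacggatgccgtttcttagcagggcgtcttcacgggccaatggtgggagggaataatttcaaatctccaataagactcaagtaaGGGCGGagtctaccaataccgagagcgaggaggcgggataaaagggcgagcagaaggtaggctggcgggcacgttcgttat
The Ly6c1 window held 1 TATA box, no GC box and 1 CpG, and 49% of its bases were G or C. The other 4 windows held 2 to 5 GC boxes and 16 to 32 CpGs. Promoters were found for 257 of the 482 genes. Among these, the TATA box was present in 13 (5.06%, against 13.6% of all 32851 promoters in the table), the GC box in 187 (72.8%, against 35.7%), the E-box CACGTG, a Myc recognition motif, in 22 (8.56%, against 7.15%) and the GLI-binding motif GACCACCCA in 1 (0.389%, against 0.253%). These are matches of letters in a fixed window and do not show binding. The 257 genes are all expressed, unlike the table as a whole.

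Across the 482 genes, RNA was higher in Cas9-NTC than in NTC by a median of 0.58 on the log2(FPKM + 1) scale, a ratio of 1.5, with quartiles of 0.09 and 0.91. On this scale the changes of low genes are understated. The difference was above 0 for 77.4% of chromosome 15 genes, where 51.1% of all genes tested and 50.3% of the 10961 genes on the other 18 autosomes were. The median of those autosomes was 0.0028. All 3 Cas9-NTC libraries lay above all 3 NTC libraries for 336 chromosome 15 genes (69.7%, where 34.5% of all genes tested did so) and below them for 78 (16.2%, where 34.9% of all genes did so). Among the other autosomes the medians ran from -0.27 on chromosome 16 and -0.15 on chromosome 4 to 0.12 on chromosome 12 and 0.14 on chromosome 10. The chromosome 15 median was thus the largest of the 19 autosomes in this comparison, which is how the chromosome was chosen. It was 0.33 with a pseudocount of 5 and 0.05 with every gene above 0 in any library let in, a set that adds many genes whose values are near 0 in all groups.

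**Figure D1:**
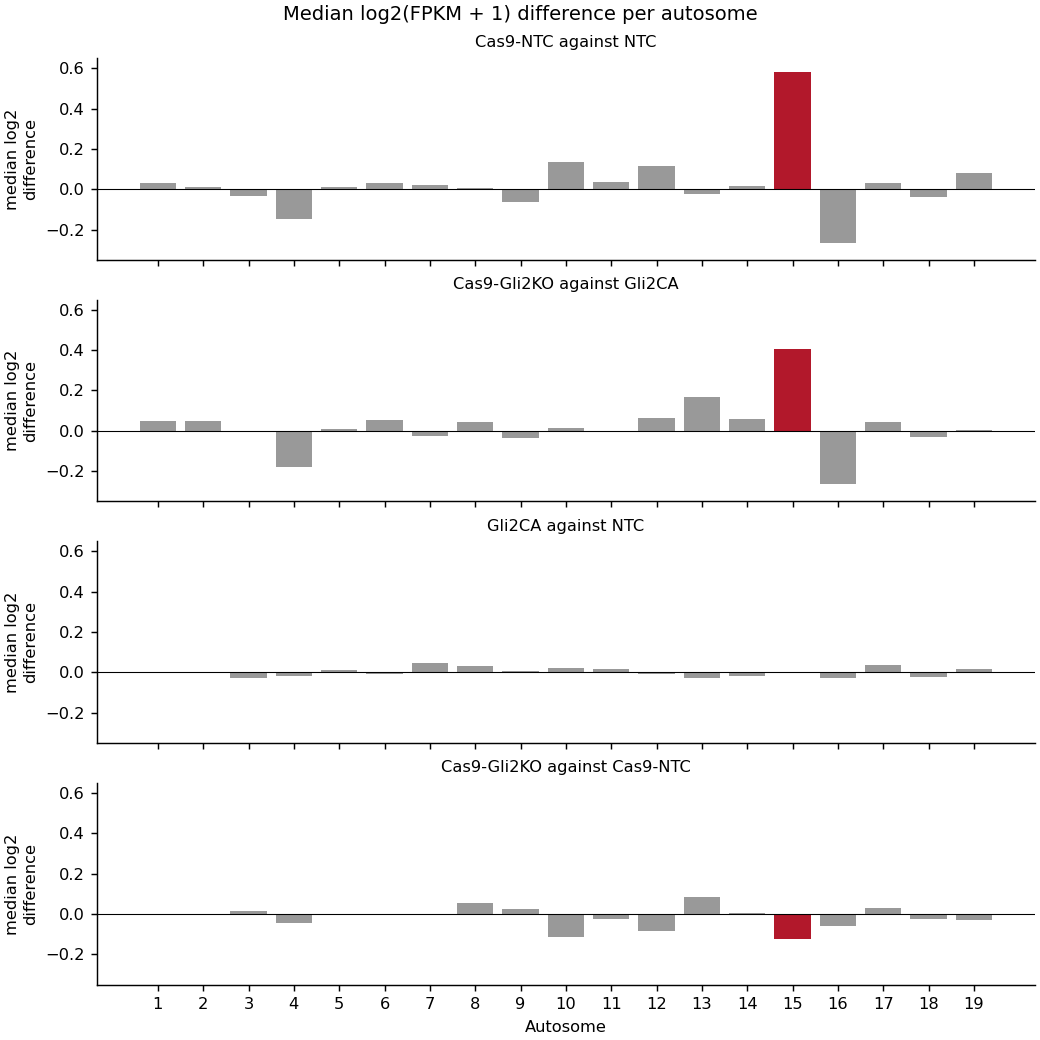
Median difference in log2(FPKM + 1) over the genes of each autosome (bars), for Cas9-NTC against NTC, the libraries labelled Cas9-Gli2KO against Gli2CA, Gli2CA against NTC and the libraries labelled Cas9-Gli2KO against Cas9-NTC. Chromosome 15, in red, stands at 0.58, 0.41, near 0 and -0.12, while the other autosomes in grey stay between -0.27 and 0.17.

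The shift was present in each library and not carried by a single sample. Taken as the median deviation of its genes from their own mean over 12 libraries, chromosome 15 stood at 0.09, 0.12 and 0.22 in the libraries labelled Cas9-Gli2KO, at 0.31, 0.29 and 0.29 in Cas9-NTC, at -0.23, -0.24 and -0.25 in Gli2CA and at -0.25, -0.25 and -0.25 in NTC. The 6 Cas9 libraries were all above the 6 others, and the libraries labelled Cas9-Gli2KO were all below Cas9-NTC. Group means were 0.14 ± 0.07 in the libraries labelled Cas9-Gli2KO, 0.30 ± 0.01 in Cas9-NTC, -0.24 ± 0.01 in Gli2CA and -0.25 ± 0.00458 in NTC (SD, n = 3 each). The genes of chromosome 15 made up 6.68 ± 0.0819% of autosomal FPKM in the libraries labelled Cas9-Gli2KO, 6.84 ± 0.103% in Cas9-NTC, 4.27 ± 0.0907% in Gli2CA and 4.53 ± 0.0173% in NTC (SD, n = 3 each). Library 3 labelled Cas9-Gli2KO was nearest to Cas9-NTC by the first measure. Chromosomes 16 and 4 were lower in both Cas9 groups, with chromosome 16 at -0.139, -0.153 and -0.23 in the libraries labelled Cas9-Gli2KO, -0.121, -0.127 and -0.123 in Cas9-NTC, 0.111, 0.14 and 0.119 in Gli2CA and 0.135, 0.191 and 0.137 in NTC.

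**Figure D2:**
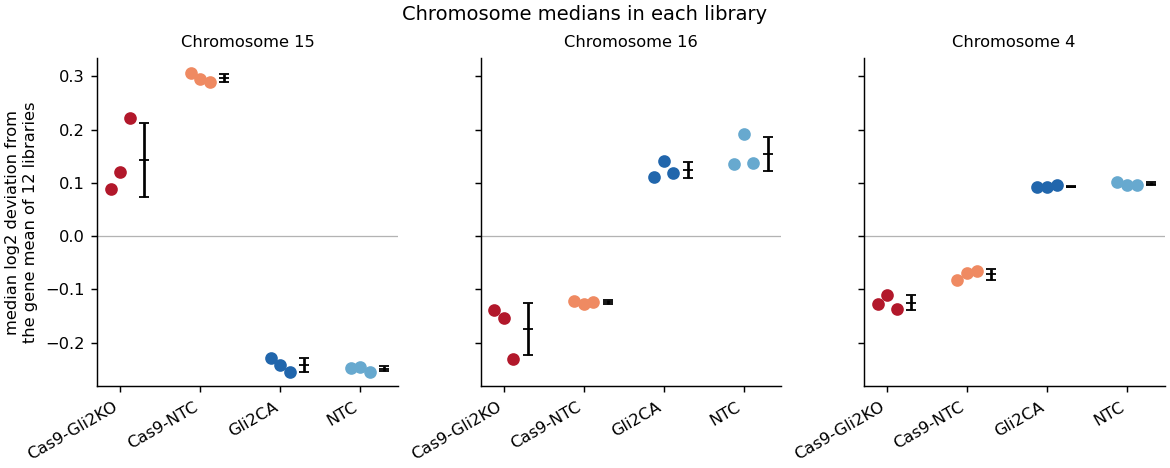
Median log2 deviation of the genes of chromosomes 15, 16 and 4 from each gene's mean over 12 libraries; each dot is a library and the bars are the group mean ± SD (n = 3). Chromosome 15 is above 0 in all 6 Cas9 libraries (0.09 to 0.31) and below 0 in all Gli2CA and NTC libraries (-0.25 to -0.23), and chromosomes 16 and 4 are the other way round.

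The libraries labelled Cas9-Gli2KO against Gli2CA compare the same pair of lines with other libraries, although the groups also differ in their labelled Gli2 state. Chromosome 15 genes were higher by a median of 0.41 (ratio 1.32, quartiles -0.14 and 0.99), and 71.4% were above 0 (51.0% of all genes tested). The other autosomes had a median of 0.0043, with 50.2% above 0. With the Benjamini-Hochberg adjusted p of limma under 0.05, 253 genes of chromosome 15 rose (52.5%, against 32.6% of all genes tested) and 85 fell (17.6%, against 32.9%). In either direction 338 were called (70.1%, against 65.5%), so the share of called genes was near that of the genome and the balance of directions was not. All 3 libraries labelled Cas9-Gli2KO lay above all 3 Gli2CA libraries for 259 genes (53.7%, against 31.6%) and below them for 81 (16.8%, against 32.5%). The other autosomes ran from -0.26 on chromosome 16 and -0.18 on chromosome 4 to 0.06 on chromosome 12 and 0.17 on chromosome 13. With library 3 as the only library labelled Cas9-Gli2KO, assumed in tests to vary like the other groups, the chromosome 15 median was 0.50. Without it the median was 0.37. Then 259 genes rose (53.7%, against 39.5% of all genes tested) and 125 fell (25.9%, against 39.7%). With a pseudocount of 5 the median was 0.25, and with every gene above 0 in any library it was 0.05.

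Set side by side, the difference between Cas9-NTC and NTC and that between the libraries labelled Cas9-Gli2KO and Gli2CA had Pearson's r of 0.843 and Spearman's rho of 0.707 over the 482 genes. Both differences were above 0 for 322 genes, both below 0 for 87, opposite in sign for 72 and at 0 in 1 of them for 1 gene, so the sign was shared by 84.9%. Over the 10961 genes of the other autosomes r was 0.804 and the sign was shared by 74.7%. No library enters both comparisons, but the points share the pair of lines, their media, the gene lengths and the scale, and the correlation is given as a description.

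**Figure D3:**
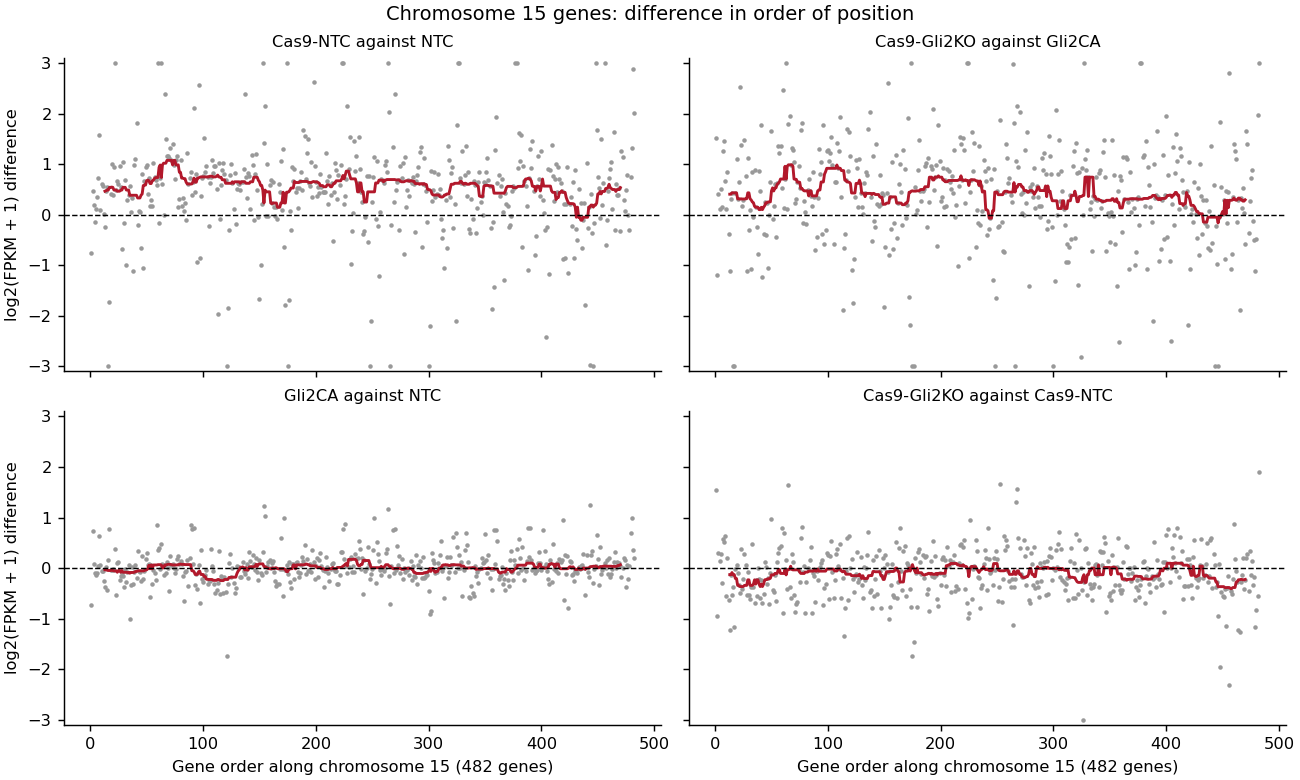
Difference in log2(FPKM + 1) for each of 482 chromosome 15 genes (grey dots, drawn at 3 or -3 where beyond), placed by their order along the chromosome, with the running median of 25 genes in red and the median of the other autosomes as a dashed line. The running median is above 0 along nearly the whole chromosome for Cas9-NTC against NTC and for the libraries labelled Cas9-Gli2KO against Gli2CA. For Gli2CA against NTC it is near 0 along most of the chromosome, and the 25 genes at 43.9 to 57.9 Mb have a median of -0.226.

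The shift was seen along most of the chromosome. In 18 windows of 5 Mb that held at least 5 genes each, the median difference of Cas9-NTC against NTC was 0.11 to 0.90 and above 0 in all 18. In 17 windows all 3 library medians of Cas9-NTC lay above all 3 of NTC (29.3% of the 451 autosomal windows did so), and 14 of 18 passed the 90th percentile of the 433 windows on other autosomes, which was 0.24. The largest values were 0.90 at 60 to 65 Mb, the window that holds Myc, with 6 genes, 0.79 at 50 to 55 Mb with 10 genes, 0.75 at 40 to 45 Mb with 8 genes and 0.74 at 30 to 35 Mb with 21 genes. The smallest were 0.11 at 0 to 5 Mb with 5 genes, 0.21 at 90 to 95 Mb with 17 genes and 0.22 at 65 to 70 Mb with 9 genes. The window with the most genes, 90 at 75 to 80 Mb, stood at 0.64. No gene passed the filter between 15 and 25 Mb or between 45 and 50 Mb.

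For the libraries labelled Cas9-Gli2KO against Gli2CA the windows ran from -0.04 at 25 to 30 Mb to 1.15 at 40 to 45 Mb. They were above 0 in 17 of 18, with all library medians above those of Gli2CA in 12 (28.2% of all windows) and 9 past the 90th percentile of the others, which was 0.40. The 40 to 45 Mb window stood at 0.774, 0.699 and 0.102 in the libraries labelled Cas9-Gli2KO, 0.429, 0.323 and 0.331 in Cas9-NTC, -0.643, -0.598 and -0.558 in Gli2CA and -0.396, -0.271 and -0.366 in NTC. Libraries 1 and 2 labelled Cas9-Gli2KO were thus the highest there, and library 3 also lay above every Gli2CA library. The Gli2CA libraries all lay below NTC in this window, with a median difference of -0.196. The 75 to 80 Mb window stood at 0.307, 0.243 and 0.342 in the libraries labelled Cas9-Gli2KO, 0.298, 0.306 and 0.329 in Cas9-NTC, -0.305, -0.276 and -0.289 in Gli2CA and -0.329, -0.384 and -0.275 in NTC, with no overlap between the Cas9 groups and the others. In the Myc window, at 60 to 65 Mb, the values were 0.182, 0.138 and 0.227 in the libraries labelled Cas9-Gli2KO, 0.524, 0.445 and 0.359 in Cas9-NTC, -0.0952, -0.247 and -0.279 in Gli2CA and -0.385, -0.311 and -0.429 in NTC. Windows of 10 Mb passed the 90th percentile in 11 of 11 cases for Cas9-NTC against NTC and in 6 of 11 for the libraries labelled Cas9-Gli2KO against Gli2CA. In 20 windows of 25 consecutive genes, the last of which held 7, the median was above 0 in 19 for Cas9-NTC against NTC and in 18 for the libraries labelled Cas9-Gli2KO against Gli2CA. The exception in both was the window at 99.8 to 102 Mb, which stood at -0.05 in each with overlapping libraries. The last window stood at 0.80 for Cas9-NTC against NTC and at -0.12 for the libraries labelled Cas9-Gli2KO against Gli2CA. Windows of 25 genes passed the 90th percentile of those on other autosomes in 19 and 11 of 20 cases.

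**Figure D4:**
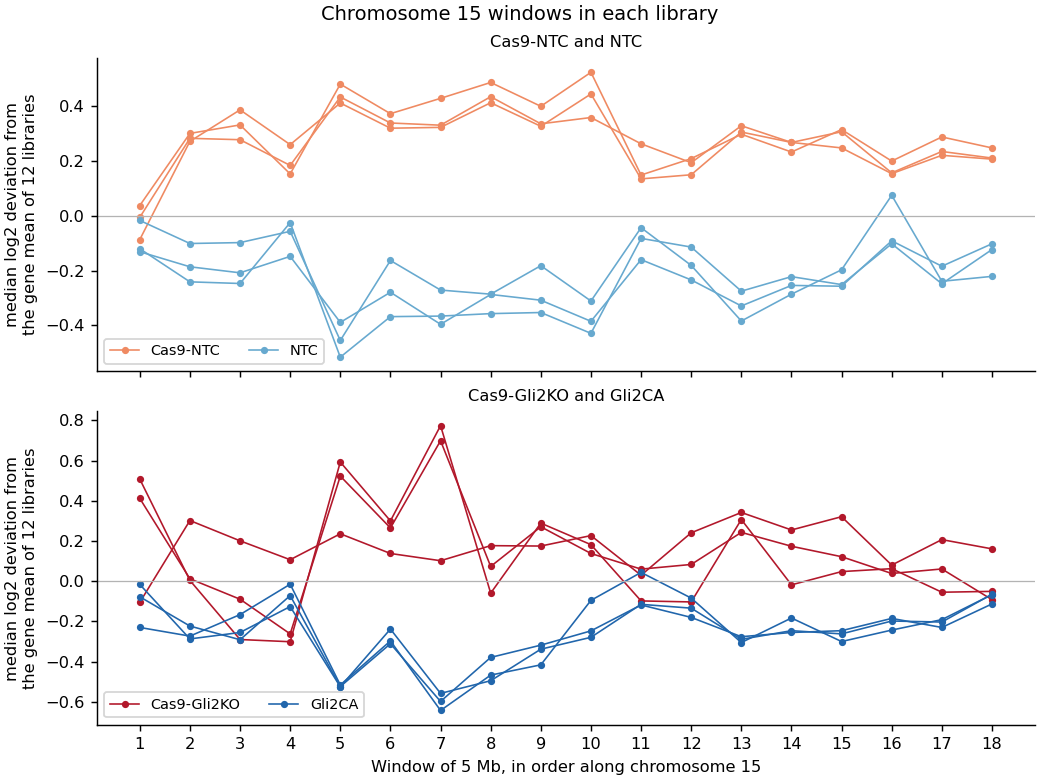
Median log2 deviation from the gene mean of 12 libraries in each 5-Mb window of chromosome 15, in order along the chromosome; each line is a library, with Cas9-NTC and NTC above and the libraries labelled Cas9-Gli2KO and Gli2CA below. Cas9-NTC lies above NTC in 17 of 18 windows for all libraries, and the libraries labelled Cas9-Gli2KO diverge most among themselves at 40 to 45 Mb (0.774, 0.699 and 0.102).

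The median was above 0 in every band of gene length and level for Cas9-NTC against NTC, though not of the same size. In 4 bands of exon length, shortest first, with limits at 2440, 4220 and 6363 bases, the median difference of Cas9-NTC against NTC was 0.62, 0.63, 0.59 and 0.49. The genes of the other autosomes in the same bands stood at 0.06, 0.02, -0.03 and -0.03. For the libraries labelled Cas9-Gli2KO against Gli2CA the chromosome 15 medians were 0.75, 0.51, 0.30 and 0.24, against 0.32, 0.05, -0.09 and -0.17 on the other autosomes, so both sets were lower in longer bands and chromosome 15 was above the others in each. With the length trend of each library removed, the chromosome 15 median of this comparison was 0.49. By mean level, the chromosome 15 median of Cas9-NTC against NTC was 0.30 for genes under 3.11 FPKM and 0.60, 0.64 and 0.69 in the bands up to 9.74 FPKM, up to 24.1 FPKM and above. Among the 257 genes with a promoter sequence, that median was 0.62, 0.54 and 0.37 for promoters of low, middle and high GC content, against 0.04, -0.01 and -0.08 on the other autosomes. For the libraries labelled Cas9-Gli2KO against Gli2CA these medians were 0.45, 0.47 and 0.12, against 0.09, -0.05 and -0.19. By level, lowest first, the chromosome 15 medians of that comparison were 0.32, 0.47, 0.39 and 0.48.

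Between Gli2CA and NTC, which share the line without Cas9, the chromosome as a whole was level. Gli2CA against NTC had a median of -0.00027 over chromosome 15, with 49.6% of genes above 0 (50.6% of all genes tested), against 0.0042 on the other autosomes. All 3 Gli2CA libraries lay above all 3 NTC libraries for 105 genes (21.8%, against 23.3% of all genes) and below them for 97 (20.1%, against 20.4%). In limma 36 genes rose (7.47%, against 8.45% of all genes) and 32 fell (6.64%, against 5.76%), near the background share. Windows of 5 Mb ran from -0.27 at 50 to 55 Mb to 0.11 at 60 to 65 Mb, with 8 of 18 above 0. All 3 library medians of Gli2CA lay above those of NTC in 1 window (11.8% of all windows) and below in 3 (21.3%). Of the 18, 5 lay under the 10th percentile of the other autosomes, which was -0.133, and 1 passed the 90th. The 25 genes at 43.9 to 57.9 Mb stood at -0.226 with all Gli2CA library medians below. The lowest of 444 such windows on other autosomes was -0.216. The count of 68 called genes (14.1%, against 14.2% of all genes) dropped to 45, 38 and 43 when Gli2CA library 1, 2 or 3 was left out. Those were 9.34%, 7.88% and 8.92%, against 10%, 9.54% and 9.84% of all genes. Without NTC library 1 the count was 40 (8.3%, against 10.2%). This comparison shares its NTC libraries with Cas9-NTC against NTC.

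Within the Cas9 line the chromosome was lower in the libraries labelled Cas9-Gli2KO than in Cas9-NTC. The median was -0.12 (ratio 0.918), 41.1% of genes were above 0 (48.6% of all genes tested), and the other autosomes had a median of -0.0065, with -0.11 on chromosome 10 as their lowest and 0.08 on chromosome 13 as their highest. In limma 39 chromosome 15 genes rose (8.09%, against 11.2% of all genes) and 113 fell (23.4%, against 15.7%). In 10 of 18 windows all library medians lay below those of Cas9-NTC (18.8% of all windows did so). The libraries carried unequal weight: the median was -0.06 without library 1 labelled Cas9-Gli2KO, -0.17 without library 3 and -0.05 with library 3 alone. The count of called genes was 336 without library 3 (69.7%, where 65.7% of all genes tested were called). It was 85 and 72 without library 1 or 2 (17.6% and 14.9%, against 13.9% and 11.3% of all genes). Without Cas9-NTC library 1, 2 or 3 it was 85, 72 and 73 (17.6%, 14.9% and 15.1%, against 14.3%, 12.2% and 12.5%). These counts thus moved with those of the whole genome. In the 4 bands of exon length, shortest first, the medians were 0.20, -0.04, -0.21 and -0.28 on chromosome 15, against 0.23, 0.01, -0.05 and -0.17 on the other autosomes. The comparison shares Cas9-NTC with the one that picked out the chromosome.

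Genes of protein synthesis mostly moved together between the lines, in the direction of the whole chromosome. Counts of listed genes in the libraries labelled Cas9-Gli2KO against Gli2CA are read against all genes tested, of which 32.6% rose and 32.9% fell. On chromosome 15 those shares were 52.5% and 17.6%. All 10 listed translation factors and ribosomal proteins were above 0 in Cas9-NTC against NTC, with a median of 0.83. In the libraries labelled Cas9-Gli2KO against Gli2CA 8 of 10 rose and 0 fell, with a median of 0.91. The medians of all genes tested were 0.0155 and 0.0183 and those of chromosome 15 were 0.58 and 0.41. Its band of shortest genes stood at 0.62 and 0.75. How far the list exceeds the chromosome was not tested. With library 3 as the only library labelled Cas9-Gli2KO, 10 of 10 rose, with a median of 0.71, and without it 8 rose and 2 fell, with a median of 1.15. Eif3h (chr15:51786558-51865523, minus strand), a subunit of the initiation factor that brings messenger RNA to the ribosome, had 787, 657 and 340 FPKM in the libraries labelled Cas9-Gli2KO, 462, 429 and 404 in Cas9-NTC, 199, 212 and 214 in Gli2CA and 191, 207 and 212 in NTC. Each Cas9 library lay above each Gli2CA and NTC library, and library 3 labelled Cas9-Gli2KO was the lowest of its group. Mean FPKM was 2.13 times as high in Cas9-NTC as in NTC and 2.85 times as high in the libraries labelled Cas9-Gli2KO as in Gli2CA, a log2 difference of 1.42 ± 0.24 (SE, limma adjusted p = 0.00031), which was 0.70 with library 3 alone. Rpl8 (chr15:76904078-76906314, plus strand), a protein of the large ribosomal subunit, had 2250, 1980 and 1320 FPKM in the libraries labelled Cas9-Gli2KO, 1310, 1260 and 1320 in Cas9-NTC, 650, 720 and 671 in Gli2CA and 673, 689 and 752 in NTC. Its difference for the libraries labelled Cas9-Gli2KO against Gli2CA was 1.41 ± 0.17 (SE, limma adjusted p = 2.2e-05), and 0.95 with library 3 alone. Rpl37 (chr15:5116645-5119140, plus strand), a protein of the same subunit that the list does not hold and whose promoter is the first shown above, had 456, 474 and 298 FPKM in the libraries labelled Cas9-Gli2KO, 262, 259 and 281 in Cas9-NTC, 158, 174 and 164 in Gli2CA and 133, 185 and 166 in NTC. The libraries labelled Cas9-Gli2KO differed from Gli2CA by 1.27 ± 0.17 (SE, limma adjusted p = 6.06e-05), and by 0.85 with library 3 alone. Rpl3 lay closer in the control lines, at a ratio of 1.19 for Cas9-NTC over NTC. Eif4b, which assists the unwinding of messenger RNA, and Pabpc1, the poly(A)-binding protein, were at 0.74 and 1.08 on the log2 scale in Cas9-NTC against NTC, but at 0.01 and 0.05 in the libraries labelled Cas9-Gli2KO against Gli2CA, where they did not pass the test (limma adjusted p = 0.962 and 0.848). Both fell in the libraries labelled Cas9-Gli2KO against Cas9-NTC (limma adjusted p = 0.0419 and 0.014), with 2 of 10 falling and 0 rising there. Of all genes tested 11.2% rose and 15.7% fell in that comparison. The balance of the list rested on library 3 labelled Cas9-Gli2KO: 6 rose and 2 fell without it, where 30.9% and 34.8% of all genes did so. With the length trend removed 2 rose and 2 fell.

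The list of Myc and genes around it, from Eif3h and Rad21 to just past Ndrg1, held 37 measured genes and not every gene of that region. The list includes Has2 and Sntb1, which reached 1 FPKM in Gli2CA and NTC alone and so had to differ between the lines. The median of the 37 was 0.65 in Cas9-NTC against NTC, with 29 above 0. In the libraries labelled Cas9-Gli2KO against Gli2CA 19 rose and 9 fell, with a median of 0.36 (0.48 with library 3 alone). Against Cas9-NTC 0 rose and 12 fell, with a median of -0.21 (-0.15 with library 3 alone). Of all genes tested 11.2% rose and 15.7% fell in that comparison, and of chromosome 15 genes 8.09% and 23.4%. Without library 3, 7 of the list rose and 18 fell there, where 30.9% and 34.8% of all genes did so. Myc (chr15:61985391-61990374, plus strand) had 10.3, 11.9 and 16.5 FPKM in the libraries labelled Cas9-Gli2KO, 19.2, 17.5 and 19.2 in Cas9-NTC, 11.8, 11.5 and 9.52 in Gli2CA and 8.37, 9.34 and 8.98 in NTC. Every Cas9-NTC library was above every NTC library, at 2.1 times the mean. The libraries labelled Cas9-Gli2KO overlapped Gli2CA, at a log2 difference of 0.21 ± 0.14 (SE, limma adjusted p = 0.222), so no change of Myc was shown there. Against Cas9-NTC Myc fell, by 0.52 ± 0.14 (SE, limma adjusted p = 0.0236) on the log2 scale, but the adjusted p was 0.0545 to 0.0903 when library 1 or 2 labelled Cas9-Gli2KO or any Cas9-NTC library was left out, and 0.395 with library 3 alone. Pvt1, the non-coding RNA gene next to Myc, did not share its pattern, with 3.23, 2.49 and 1.23 FPKM in the libraries labelled Cas9-Gli2KO, 1.68, 1.49 and 1.37 in Cas9-NTC, 1.9, 1.87 and 1.77 in Gli2CA and 1.64, 1.77 and 1.65 in NTC. The libraries labelled Cas9-Gli2KO spanned the values of all other libraries, and Pvt1 exons overlap another gene.

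Rad21 (chr15:51962240-51991747, minus strand), a subunit of the cohesin ring that holds sister chromatids, had 154, 163 and 145 FPKM in the libraries labelled Cas9-Gli2KO, 159, 155 and 153 in Cas9-NTC, 64, 61 and 66.1 in Gli2CA and 81.8, 77.4 and 80.2 in NTC. The Cas9 groups overlapped each other and stood clear of the rest, at 1.95 times the level in Cas9-NTC over NTC and a log2 difference of 1.26 ± 0.08 (SE, limma adjusted p = 7.73e-08) for the libraries labelled Cas9-Gli2KO against Gli2CA. In Gli2CA against NTC Rad21 fell, at -0.32 ± 0.08 (SE, limma adjusted p = 0.0158), a call lost without Gli2CA library 1 or 2 or NTC library 1 or 3 (limma adjusted p = 0.0569, 0.0821, 0.0695 and 0.0509). Sqle, an enzyme of cholesterol synthesis, had 24.1, 27.3 and 35.4 FPKM in the libraries labelled Cas9-Gli2KO, 39.5, 38.9 and 38.7 in Cas9-NTC, 23.4, 21.2 and 22.3 in Gli2CA and 21.7, 24.1 and 23.1 in NTC. Cas9-NTC was at 1.7 times NTC, and the difference of 0.34 ± 0.12 (SE, limma adjusted p = 0.0247) for the libraries labelled Cas9-Gli2KO against Gli2CA did not hold without Gli2CA library 2 or 3 (limma adjusted p = 0.0782 and 0.0589), with library weights (0.201) or in a fit of the 2 groups alone (0.103). Asap1, which regulates membrane traffic and focal adhesions, had 10.2, 12.2 and 25.1 FPKM in the libraries labelled Cas9-Gli2KO, 25, 25.8 and 26.9 in Cas9-NTC, 13.7, 11.2 and 12.8 in Gli2CA and 11.7, 9.78 and 10.8 in NTC, and library 3 labelled Cas9-Gli2KO was level with Cas9-NTC while libraries 1 and 2 were near Gli2CA.

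Among other genes of the region, Ndrg1 and Ccn3 were higher in Cas9-NTC than in NTC and lower in the libraries labelled Cas9-Gli2KO than in Gli2CA, while Has2 was lower in both. Ndrg1 (chr15:66929318-66969640, minus strand), a gene induced by low oxygen and differentiation, had 7.22, 8.48 and 8.61 FPKM in the libraries labelled Cas9-Gli2KO, 16.7, 17.2 and 17.6 in Cas9-NTC, 14.7, 14.9 and 15 in Gli2CA and 5.87, 6.11 and 5.42 in NTC. It fell in the libraries labelled Cas9-Gli2KO against Gli2CA, at -0.81 ± 0.08 (SE, limma adjusted p = 5.36e-06), and rose in Gli2CA against NTC, at 1.22 ± 0.08 (SE, limma adjusted p = 2.17e-06). Has2, which makes hyaluronan, had 0.358, 0.135 and 0.171 FPKM in the libraries labelled Cas9-Gli2KO, 0.334, 0.465 and 0.436 in Cas9-NTC, 2.51, 3.17 and 3.62 in Gli2CA and 4.08, 3.83 and 4.22 in NTC. The 6 Cas9 libraries were all below every Gli2CA and NTC library. Its difference for the libraries labelled Cas9-Gli2KO against Gli2CA was -1.74 ± 0.11 (SE). Ccn3, a secreted matrix protein, had 7.04, 7.81 and 8.72 FPKM in the libraries labelled Cas9-Gli2KO, 22.3, 22 and 20.2 in Cas9-NTC, 14, 12.4 and 12.5 in Gli2CA and 10.4, 10.2 and 9.61 in NTC. It fell in the libraries labelled Cas9-Gli2KO against Gli2CA, at -0.66 ± 0.09 (SE, limma adjusted p = 6.51e-05).

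Among 7 genes listed for DNA repair and chromatin (Xrcc6, Rad21, Nsmce2, Recql4, Ep300, Rbx1 and Cby1), 6 rose and 0 fell in the libraries labelled Cas9-Gli2KO against Gli2CA. Their median there was 1.26, where that of chromosome 15 was 0.41. All 7 were above 0 in Cas9-NTC against NTC, with a median of 0.78, where that of the chromosome was 0.58. With library 3 alone 6 rose, with a median of 0.79. Cby1, an inhibitor of beta-catenin rather than a repair protein, had 61.8, 55.5 and 30.2 FPKM in the libraries labelled Cas9-Gli2KO, 34.7, 31.4 and 28.9 in Cas9-NTC, 14.9, 19.7 and 17 in Gli2CA and 19.8, 16.2 and 21.3 in NTC. Library 3 was the lowest labelled Cas9-Gli2KO library and still lay above every Gli2CA library. Cenpm (chr15:82233779-82244748, minus strand), a component of the centromere, had 17.5, 16.4 and 16 FPKM in the libraries labelled Cas9-Gli2KO, 13, 11.8 and 13.3 in Cas9-NTC, 3.45, 3.04 and 3.05 in Gli2CA and 6.66, 5.86 and 7.04 in NTC. This gene is not on the list. It was 5.23 times as high in the libraries labelled Cas9-Gli2KO as in Gli2CA, a difference of 2.08 ± 0.09 (SE, limma adjusted p = 2.82e-09), and fell in Gli2CA against NTC, at -0.85 ± 0.09 (SE, limma adjusted p = 5.55e-05). The RecQ helicase gene Recql4 and the end-joining gene Xrcc6 were at 1.28 and 1.57 in the libraries labelled Cas9-Gli2KO against Gli2CA (limma adjusted p = 2.07e-05 and 1.05e-07).

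Tubulin genes did not move together. Tuba1b (chr15:98931425-98934565, minus strand) had 755, 711 and 734 FPKM in the libraries labelled Cas9-Gli2KO, 611, 597 and 684 in Cas9-NTC, 281, 296 and 287 in Gli2CA and 334, 341 and 332 in NTC. It rose in the libraries labelled Cas9-Gli2KO against Gli2CA by 1.35 ± 0.09 (SE, limma adjusted p = 1.11e-07). Tuba1a, its neighbour and near-identical in sequence, had 656, 552 and 342 FPKM in the libraries labelled Cas9-Gli2KO, 340, 307 and 300 in Cas9-NTC, 541, 604 and 577 in Gli2CA and 683, 779 and 681 in NTC. It was lower in Cas9-NTC than in NTC and overlapped between the libraries labelled Cas9-Gli2KO and Gli2CA, where the difference was -0.20 ± 0.19 (SE, limma adjusted p = 0.374). Reads of these near copies may have been split between them, and both have exons that overlap other genes, so their levels are uncertain. Across the 10 cytoskeletal genes 3 rose and 2 fell in that comparison, with a median of -0.05 (5 and 2, and 0.33, with library 3 alone, 3 and 4, and 0.00519, without it), and 8 were above 0 in Cas9-NTC against NTC, with a median of 0.42. Myh9, the heavy chain of non-muscle myosin, had 16.7, 19.1 and 52.1 FPKM in the libraries labelled Cas9-Gli2KO, 45.3, 49.9 and 49.3 in Cas9-NTC, 49.8, 45.3 and 46.5 in Gli2CA and 46.1, 33.3 and 46.2 in NTC. Library 3 labelled Cas9-Gli2KO was just above Gli2CA and libraries 1 and 2 were far below, so its fall of 0.86 ± 0.32 (SE, limma adjusted p = 0.0368) against Gli2CA turned to 0.14 with library 3 alone (limma adjusted p = 0.467).

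**Figure D5:**
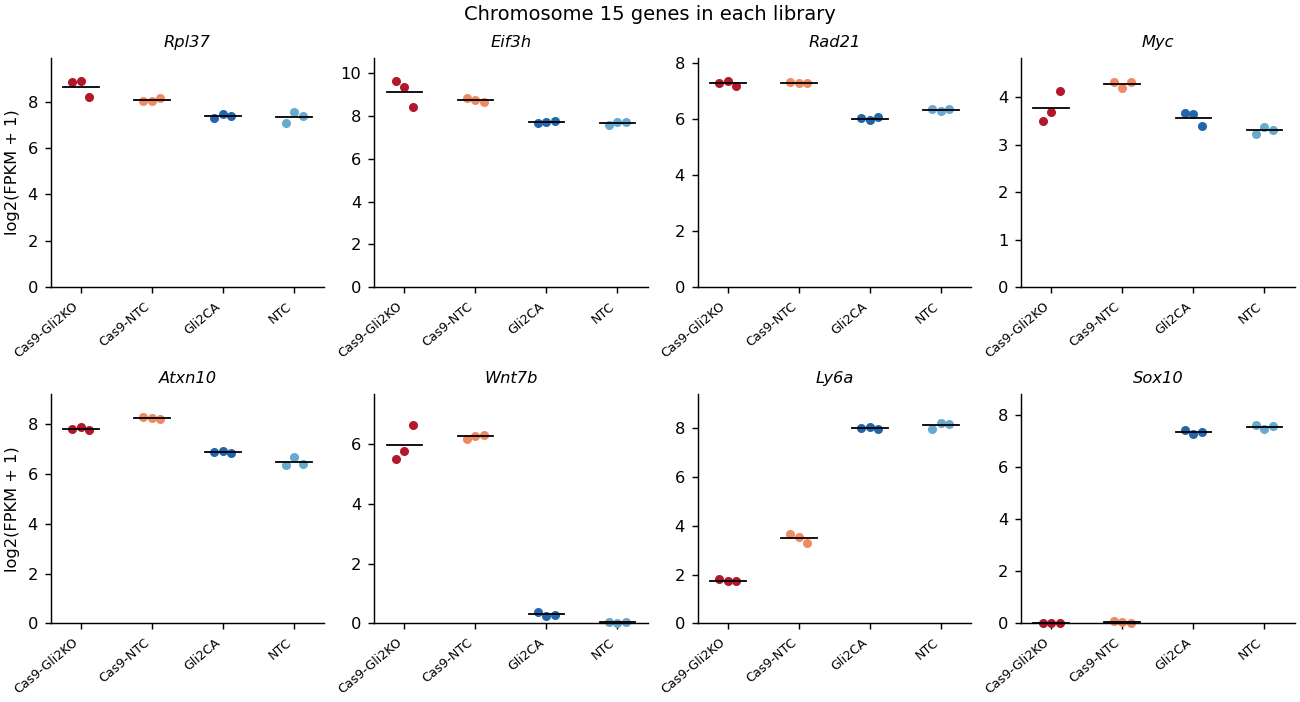
log2(FPKM + 1) of 8 chromosome 15 genes in each library (dots) with the group mean (line), for the libraries labelled Cas9-Gli2KO, Cas9-NTC, Gli2CA and NTC. Rpl37, Eif3h, Rad21, Atxn10 and Wnt7b are above Gli2CA and NTC in all 6 Cas9 libraries, Ly6a and Sox10 are below them, and Myc in the libraries labelled Cas9-Gli2KO overlaps Gli2CA.

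Genes with the widest differences on chromosome 15 went both ways and exceeded the chromosome median many times. Sox10 (chr15:79154908-79165240, minus strand), the transcription factor that specifies neural crest and melanocytes, had 0, 0 and 0.0139 FPKM in the libraries labelled Cas9-Gli2KO, 0.058, 0.0258 and 0 in Cas9-NTC, 171, 155 and 161 in Gli2CA and 197, 177 and 192 in NTC. The Cas9 libraries held 0 to 3 Sox10 reads each and the others 8354 to 13700, and for the libraries labelled Cas9-Gli2KO against Gli2CA the difference was -7.34 ± 0.07 (SE). Ly6a (chr15:74994877-74998031, minus strand), the stem cell antigen Sca-1, had 2.48, 2.29 and 2.33 FPKM in the libraries labelled Cas9-Gli2KO, 11.5, 10.7 and 8.78 in Cas9-NTC, 258, 263 and 249 in Gli2CA and 253, 297 and 285 in NTC. Ly6c1, whose promoter is shown above, had 5.76, 4.92 and 4.8 FPKM in the libraries labelled Cas9-Gli2KO, 17.8, 16.4 and 14.2 in Cas9-NTC, 58.9, 57.2 and 59 in Gli2CA and 52.6, 55.8 and 52.8 in NTC. In the libraries labelled Cas9-Gli2KO both fell against Gli2CA, at -6.26 ± 0.10 (SE, limma adjusted p = 1.27e-12) and -3.27 ± 0.09 (SE, limma adjusted p = 1.12e-10), and against Cas9-NTC, at -1.74 ± 0.10 (SE, limma adjusted p = 2.14e-06) and -1.47 ± 0.09 (SE, limma adjusted p = 4.13e-06). Ly6e (chr15:74955051-74959905, plus strand), a family member linked to virus infection, went the other way, with 32.4, 38.7 and 54.3 FPKM in the libraries labelled Cas9-Gli2KO, 71.9, 71.8 and 66.9 in Cas9-NTC, 3.92, 4.13 and 3.96 in Gli2CA and 3.97, 3.64 and 3.77 in NTC. Of the 4 measured members of the Ly6 family, 1 rose and 3 fell in the libraries labelled Cas9-Gli2KO against Gli2CA, with a median of -2.72. All 4 fell against Cas9-NTC, where 15.7% of all genes tested fell, with a median of -1.12 (-0.96 with library 3 alone). Ly6a and Ly6c1 belong to a family of similar genes, so reads may have been shared among its members.

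Wnt7b (chr15:85535437-85582473, minus strand), a secreted Wnt ligand, had 44.2, 53.7 and 98.8 FPKM in the libraries labelled Cas9-Gli2KO, 71.3, 76.5 and 78.7 in Cas9-NTC, 0.294, 0.192 and 0.206 in Gli2CA and 0.0358, 0 and 0.0381 in NTC. The Cas9 groups overlapped each other, and the difference for the libraries labelled Cas9-Gli2KO against Gli2CA was 5.67 ± 0.22 (SE). Its exons overlap another gene, and strand use in counting is not known. Pdgfb, the platelet-derived growth factor chain, had 0.0417, 0 and 0.0205 FPKM in the libraries labelled Cas9-Gli2KO, 0.17, 0.142 and 0.25 in Cas9-NTC, 7.46, 6.76 and 7.03 in Gli2CA and 12.9, 10.5 and 13.3 in NTC. The Cas9 groups were both far below, at -2.98 ± 0.09 (SE) for the libraries labelled Cas9-Gli2KO against Gli2CA, and Gli2CA was below NTC, at -0.71 ± 0.09 (SE, limma adjusted p = 0.000349). Of 4 ligand-related genes (Wnt7b, Pdgfb, Ccn4 and Grina, the last a membrane protein), 2 rose and 1 fell in the libraries labelled Cas9-Gli2KO against Gli2CA, with a median of 1.43 (1.87 with library 3 alone). Of these, 3 were above 0 in Cas9-NTC against NTC, with a median of 2.28. Wnt7b reached 1 FPKM in the Cas9 groups alone and Pdgfb in Gli2CA and NTC alone. Both thus had to differ between the lines, and the counts and medians include them. Atxn10 (chr15:85336245-85463212, plus strand), which neighbours Wnt7b, had 222, 235 and 215 FPKM in the libraries labelled Cas9-Gli2KO, 309, 302 and 299 in Cas9-NTC, 118, 121 and 115 in Gli2CA and 81.9, 101 and 83.2 in NTC. Mean FPKM was 3.42 times as high in Cas9-NTC as in NTC. It rose in the libraries labelled Cas9-Gli2KO against Gli2CA, at 0.92 ± 0.09 (SE, limma adjusted p = 6.24e-06), and fell against Cas9-NTC, at -0.44 ± 0.09 (SE, limma adjusted p = 0.00816).

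Receptors were split. Of 6 growth factor and cytokine receptors 1 rose and 4 fell in the libraries labelled Cas9-Gli2KO against Gli2CA, with a median of -1.14, and 3 of 6 were above 0 in Cas9-NTC against NTC, with a median of -0.29. Those that fell include Acvrl1 and Tnfrsf13c. These reached 1 FPKM in Gli2CA and NTC alone, so they had to differ between the lines. Acvrl1 (chr15:101128522-101145336, plus strand), a receptor for bone morphogenetic proteins, had 0.0813, 0.103 and 0.11 FPKM in the libraries labelled Cas9-Gli2KO, 0.0138, 0.0555 and 0.0812 in Cas9-NTC, 18.4, 18.7 and 18.3 in Gli2CA and 7.28, 5.89 and 8.74 in NTC. It was near 0 in both Cas9 groups and rose in Gli2CA against NTC, at 1.25 ± 0.11 (SE, limma adjusted p = 1.57e-05). Its neighbour Acvr1b, an activin receptor, had 3.47, 3.81 and 5.4 FPKM in the libraries labelled Cas9-Gli2KO, 5.17, 5.61 and 6.25 in Cas9-NTC, 5.53, 4.93 and 4.54 in Gli2CA and 4, 4.45 and 3.62 in NTC. All 3 Cas9-NTC libraries lay above all 3 NTC libraries, at 1.41 times the mean. It did not pass the test in the libraries labelled Cas9-Gli2KO against Gli2CA, at -0.21 ± 0.13 (SE, limma adjusted p = 0.182). Ghr, the growth hormone receptor, had 12, 11.5 and 9.59 FPKM in the libraries labelled Cas9-Gli2KO, 23.4, 22.4 and 20.7 in Cas9-NTC, 26, 26.8 and 26.8 in Gli2CA and 15.4, 17.4 and 14.2 in NTC. It fell in the libraries labelled Cas9-Gli2KO against Gli2CA, at -1.20 ± 0.10 (SE, limma adjusted p = 1.19e-06), and against Cas9-NTC, at -0.95 ± 0.10 (SE, limma adjusted p = 9.56e-05), and rose in Gli2CA against NTC, at 0.73 ± 0.10 (SE, limma adjusted p = 0.000498). Lifr, the receptor for leukaemia inhibitory factor, had 2.08, 2.56 and 2.8 FPKM in the libraries labelled Cas9-Gli2KO, 4.15, 4.11 and 3.87 in Cas9-NTC, 1.42, 1.53 and 1.75 in Gli2CA and 2.33, 2.79 and 2.25 in NTC. It was the 1 receptor that rose in the libraries labelled Cas9-Gli2KO against Gli2CA, at 0.43 ± 0.10 (SE, limma adjusted p = 0.00269), a call lost with library weights (limma adjusted p = 0.135).

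Adhesion genes and transcription factors were mixed. Their counts against Gli2CA are read against the 32.6% of all genes tested that rose there and the 32.9% that fell. Itgb7, an integrin chain known from lymphocyte homing, had 6.06, 7.03 and 11.4 FPKM in the libraries labelled Cas9-Gli2KO, 41.8, 43.2 and 43.8 in Cas9-NTC, 0.113, 0.299 and 0.403 in Gli2CA and 0.174, 0.361 and 0.0449 in NTC. Itgb7 fell in the libraries labelled Cas9-Gli2KO against Cas9-NTC, at -2.31 ± 0.18 (SE, limma adjusted p = 1.53e-05). Itga5, the alpha chain of the fibronectin receptor, had 28, 34.4 and 65.1 FPKM in the libraries labelled Cas9-Gli2KO, 88.7, 92.3 and 91.4 in Cas9-NTC, 94.4, 82.8 and 85.8 in Gli2CA and 54.7, 52.2 and 54.8 in NTC. Itga5 fell in the libraries labelled Cas9-Gli2KO against Gli2CA, at -1.12 ± 0.23 (SE, limma adjusted p = 0.00127) and -0.42 with library 3 alone. Of 5 integrin and adhesion genes 2 rose and 2 fell in that comparison, with a median of -0.71 (2 and 1, and 0.20, with library 3 alone, 2 and 3, and -1.07, without it), and 4 were above 0 in Cas9-NTC against NTC, with a median of 0.74. Among 15 nuclear receptors and transcription factors 7 rose and 3 fell, with a median of 0.26 (10 and 4, and 0.52, with library 3 alone, and 7 and 5, and 0.18, without it), and 10 were above 0 in Cas9-NTC against NTC, with a median of 0.54. Nr4a1, an immediate early nuclear receptor, had 2.51, 1.97 and 3.01 FPKM in the libraries labelled Cas9-Gli2KO, 5.94, 5.74 and 5.32 in Cas9-NTC, 55.3, 50.4 and 55.8 in Gli2CA and 71.6, 59.8 and 68.5 in NTC. The libraries labelled Cas9-Gli2KO differed from Gli2CA by -3.98 ± 0.11 (SE, limma adjusted p = 1.04e-10). Among 12 melanoma and neural crest genes 3 rose and 3 fell, with a median of 0.000924 (7 and 4, and 0.36, with library 3 alone, 3 and 5, and -0.06, without it). Of these, 8 were above 0 in Cas9-NTC against NTC, with a median of 0.35. Itgb7 reached 1 FPKM in the Cas9 groups alone, and Vdr, Sox10 and Pdgfb in the other lists reached it in Gli2CA and NTC alone. These genes had to differ between the lines, and the counts and medians above include them. No Hoxc cluster gene passed the filter.

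Within each line the counts of listed genes are read against the share of all genes called. It was 14.2% in Gli2CA against NTC (8.45% rose and 5.76% fell). For the libraries labelled Cas9-Gli2KO against Cas9-NTC it was 26.8% (11.2% rose and 15.7% fell). Without library 3 labelled Cas9-Gli2KO it was 65.7% there (30.9% rose and 34.8% fell). In Gli2CA against NTC limma called 0 of 10 translation genes, 0 of 4 Ly6 genes and 0 of 5 adhesion genes. At an unadjusted p under 0.05 it called 0, 0 and 1 of them, and voom called 0 in each list. Of the receptors 2 rose and 2 fell. In the same comparison 2 genes of the Myc list rose and 4 fell, 1 transcription factor rose and 1 fell, 1 cytoskeletal gene rose, and 1 gene fell in each of the repair, ligand and melanoma lists. At the background share, 0 or 1 calls in lists of this size say nothing particular about them. In the libraries labelled Cas9-Gli2KO against Cas9-NTC 4 cytoskeletal genes fell and 1 rose (0 and 0 with library 3 alone, 7 and 3 without it). Of the melanoma genes 4 fell and 1 rose (1 and 0 with library 3 alone, 8 and 1 without it), and of the transcription factors 3 fell and 1 rose (1 and 1 with library 3 alone, 8 and 2 without it). Of the receptors 3 fell (2 with library 3 alone, 4 without it) and of the adhesion genes 3 fell (2 with library 3 alone, 5 without it). There 1 ligand gene fell (2 rose and 1 fell with library 3 alone, 0 and 3 without it) and 0 of 7 repair genes were called by limma or voom, with 2 at an unadjusted p under 0.05 in limma, but 4 rose and 1 fell without library 3.

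The gene with the highest mean level, Lgals1 (chr15:78926725-78930465, plus strand), which encodes a galactose-binding lectin, had 6440, 5620 and 3740 FPKM in the libraries labelled Cas9-Gli2KO, 4120, 3940 and 4040 in Cas9-NTC, 2650, 2990 and 2770 in Gli2CA and 2210, 1810 and 2530 in NTC. It rose in the libraries labelled Cas9-Gli2KO against Gli2CA, at 0.87 ± 0.19 (SE, limma adjusted p = 0.00201) and 0.42 with library 3 alone. Dap, a mediator of cell death whose promoter is shown above, had 372, 377 and 380 FPKM in the libraries labelled Cas9-Gli2KO, 529, 526 and 515 in Cas9-NTC, 335, 330 and 331 in Gli2CA and 316, 314 and 312 in NTC. The libraries of each group lay close together, and Cas9-NTC was at 1.67 times NTC, while the libraries labelled Cas9-Gli2KO were at 1.13 times Gli2CA. That rise, at 0.18 ± 0.07 (SE, limma adjusted p = 0.0497), was lost without library 2 labelled Cas9-Gli2KO (limma adjusted p = 0.102), without Gli2CA library 1, 2 or 3 (0.104, 0.122 and 0.123) and with quantile normalisation (0.399). Hnrnpa1, an RNA-binding protein of splicing, had 282, 302 and 323 FPKM in the libraries labelled Cas9-Gli2KO, 259, 273 and 293 in Cas9-NTC, 165, 161 and 165 in Gli2CA and 168, 135 and 173 in NTC. Relative to Gli2CA, Hnrnpa1 rose in the libraries labelled Cas9-Gli2KO by 0.88 ± 0.11 (SE, limma adjusted p = 2.85e-05). Ywhaz, a 14-3-3 adaptor protein, had 213, 226 and 232 FPKM in the libraries labelled Cas9-Gli2KO, 273, 270 and 266 in Cas9-NTC, 257, 253 and 253 in Gli2CA and 234, 252 and 233 in NTC. It fell in the libraries labelled Cas9-Gli2KO against Cas9-NTC, at -0.27 ± 0.08 (SE, limma adjusted p = 0.0271), a call lost with library 3 alone (0.0531) and on leaving out library 1 or 2 labelled Cas9-Gli2KO or any Cas9-NTC library (0.0691 to 0.0892).

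Several genes were near silent in NTC and well expressed in both Cas9 groups. Amigo2, an adhesion protein, had 25, 22.8 and 30.7 FPKM in the libraries labelled Cas9-Gli2KO, 31.8, 34.1 and 33.8 in Cas9-NTC, 0.139, 0.0699 and 0 in Gli2CA and 0.0415, 0.0186 and 0.0197 in NTC. Cpq, a carboxypeptidase, had 22.8, 21.6 and 14.7 FPKM in the libraries labelled Cas9-Gli2KO, 18.4, 16.4 and 16.7 in Cas9-NTC, 0.523, 0.297 and 0.475 in Gli2CA and 0.0784, 0.0117 and 0 in NTC. Apol9b, an interferon-induced apolipoprotein L gene, had 29.7, 31.2 and 22.2 FPKM in the libraries labelled Cas9-Gli2KO, 56.8, 55.5 and 54.3 in Cas9-NTC, 1.24, 0.577 and 0.671 in Gli2CA and 0.0481, 0 and 0.137 in NTC. The libraries labelled Cas9-Gli2KO were above Gli2CA by 4.66 ± 0.10 (SE) for Amigo2, 3.83 ± 0.14 (SE) for Cpq and 3.97 ± 0.15 (SE) for Apol9b, genes that passed the filter through the Cas9 groups. The exons of Amigo2 and Cpq overlap other genes. Egflam, an extracellular matrix protein, was the reverse, with 0.085, 0.0716 and 0.0139 FPKM in the libraries labelled Cas9-Gli2KO, 0.53, 0.374 and 0.226 in Cas9-NTC, 50.7, 44.7 and 46.8 in Gli2CA and 42.2, 41.4 and 43.7 in NTC. Its difference for the libraries labelled Cas9-Gli2KO against Gli2CA was -5.52 ± 0.09 (SE).

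Below the filter, 4 further genes stayed out of the tests and are given as levels only. Ptger4, a prostaglandin receptor, had 0.0196, 0.0132 and 0.0128 FPKM in the libraries labelled Cas9-Gli2KO, 0.133, 0.0593 and 0.122 in Cas9-NTC, 0.433, 0.241 and 0.2 in Gli2CA and 0.488, 0.451 and 0.15 in NTC. Osmr, the oncostatin M receptor, was at 0 in every library labelled Cas9-Gli2KO and at most 0.199 FPKM elsewhere. Apobec3, a cytidine deaminase that restricts retroviruses, and Krt8, a keratin of simple epithelia, were at most 0.137 and 0.511 FPKM. Mir1943 and Snord43 passed the filter on few reads, 0 to 8 and 0 to 19 per library, and their differences carry little weight. Exons of 164 of the 482 genes overlap those of another gene, and without known strand use their reads cannot be assigned with certainty. Beside those marked above, these include Rpl3, Ndrg1, Has2, Acvrl1 and Egflam.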

How the data were processed

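The submitters measured poly(A)-selected RNA of 12 libraries, made with RNeasy and NEBNext Ultra II kits per the labels' protocols. The deposited values are FPKM per gene; for aligner, counter, genome build and strand use, the sources read gave no name. Gene identifiers were matched to GENCODE M21 (GRCm38) for position, name and exon length, with 54495 of 54532 found. Whole reads were recovered from the smallest FPKM steps of each library, and 97.8 to 98.4% of values of up to 20 reads came out whole within 0.02. A gene was kept if 3 or more libraries reached 1 FPKM. Differences were taken on log2(FPKM + 1). Tests used limma 3.58.1 in R 4.3.3, 1 fit over all 4 groups and all 11860 genes, with 8 residual degrees of freedom and Benjamini-Hochberg adjustment over all of them at 0.05; Cas9-NTC against NTC was given no test. The planned count test was not run because the deposited unit is FPKM, and voom in limma on recovered reads was used in its place. Medians were taken per chromosome and per window of 5 Mb with at least 5 genes. Tables were made with Python 3.11.15, pandas 2.3.3 and numpy 2.4.6, and figures with matplotlib 3.10.9. The fit was tested on simulated data. Named genes were the highest member of each window, a list of chromosome 15 genes of known role, up to 5 rises and 5 falls of each tested comparison with the widest non-overlapping difference, and up to 3 of each gene list by level. Asap1, Eif4b, Pabpc1, Xrcc6 and Recql4, where outside that rule, were named after their values were seen. The members, gene lists and tests were chosen with earlier results of these data known. No library pair differed by as little as sampling noise. Part of the genotype that all 4 groups share is not reported here.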

Additional observations from a re-analysis of the deposited data

How the results depend on the processing

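Cas9-NTC against NTC had a chromosome 15 median of 0.58, which was 0.67 and 0.33 with a pseudocount of 0.1 and 5, 0.0497 without the filter on low values, 0.60 with libraries centred, 0.61 after quantile normalisation, 0.60 over protein-coding genes, 0.50 as a mean, and 0.56 to 0.58 with each library left out. For the libraries labelled Cas9-Gli2KO against Gli2CA the median of 0.41 was 0.48 and 0.25 with those pseudocounts, 0.0518 without the filter, 0.49 centred, 0.48 after quantile normalisation, 0.49 with the length trend removed, 0.50 with library 3 as its only library and 0.37 to 0.42 with each library left out. Its 338 called genes (70.1%, against 65.5% of all genes) were 313 to 384 with each library left out (64.9 to 79.7%, against 58.1 to 79.2%). They were 296 in a fit of those groups alone (61.4%, against 54.2%) and 335 with library weights (69.5%, against 68.6%). Without the filter 405 of 1038 chromosome 15 genes were called, which is 39%, against 35.7% of all 26132 genes. For Gli2CA against NTC the median of -0.00027 was -0.0478 after quantile normalisation, 0.023 as a mean, which turned its sign, and -0.0372 with the length trend removed. Its 68 called genes (36 higher, 32 lower) were 115 (58 and 57) in a fit of those groups alone, or 23.9%, against 24.6% of all genes. With library weights they were 204 (100 and 104), or 42.3%, against 43.1%. With each library left out they were 38 to 53 (22 to 28 and 15 to 25), or 7.88 to 11%, against 9.54 to 11.3%. For the libraries labelled Cas9-Gli2KO against Cas9-NTC the median of -0.12 was -0.0599 with a pseudocount of 5, 0 without the filter, -0.0635 centred, -0.0457 with library 3 alone and -0.17 to -0.0582 with each library left out. Its 152 called genes (39 higher, 113 lower) were 39 (7 and 32) in a fit of those groups alone, 288 (98 and 190) with library weights, 73 (16 and 57) with library 3 alone and 72 to 336 (16 to 120 and 53 to 216) with each library left out. With library 3 alone Myh9 turned to 0.14 against Gli2CA and Plxnb2 to 0.0418 against Cas9-NTC. Of 1991 alternatives for 112 gene and comparison pairs, 1779 kept direction and call, 210 lost the call and 2 reversed. Beyond fewer samples where libraries were left out, the cause was not tested. With the replicate block 337, 60 and 144 genes were called, in the order above. Those were 69.9%, 12.4% and 29.9%, against 64.5%, 12.4% and 24.2% of all genes. Same-numbered libraries correlated at -0.372 to 0.248, so the numbers do not pair them. The planned edgeR test was not run. The length trend removal, voom and library 3 settings were chosen after seeing the data. Library weights did not converge fully. Genes resting on few reads are limited by depth.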
